A study of Mus musculus with 9 samples.

Results

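The genes described here belong to the hypoxia pathway and were followed in pancreatic islets of mice that lack *Raptor* in beta cells. They were the transcription factor subunit genes *Hif1a* and *Epas1*, the oxygen sensor genes *Egln1* and *Egln3*, and the target genes *Vegfa*, *Bnip3*, *Car9*, *Adm*, *Ankrd37* and *Ndrg1*. These 10 genes of 18193 were picked by name, and every probe set that the platform annotation pairs with 1 of them alone was taken, 22 of 45037 probe sets in all. Islet RNA was measured on 9 Affymetrix 3′ expression arrays, each with RNA pooled from 5 male mice of 8 weeks. The 4 KO arrays came from βRapKO mice, which carry *Raptor* flox/flox alleles and a Cre transgene under the rat insulin promoter. The 5 WT arrays came from *Raptor* flox/flox littermates without Cre, so the floxed alleles were shared and a Cre-only control was not among the groups. The strain is labelled C57BL/6, whereas the methods give a mixed background for the Cre line. *Raptor* (symbol *Rptor*) encodes the scaffold protein of the growth-regulating kinase complex mTORC1, and whole islets also contain cells in which it is intact.

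Cells sense oxygen through the HIF transcription factors. Prolyl hydroxylases of the EGLN family use oxygen to mark HIF-α subunits for destruction, so that the subunits accumulate and switch on target genes when oxygen is scarce. HIF-α is therefore controlled mainly at the protein level, which an array of RNA does not measure. mTORC1 is known to promote the synthesis of HIF-1α protein, and islets are densely vascularised through VEGF-A that beta cells release.

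Values are log2 signals. Each difference is the KO mean minus the WT mean, given ± SE, and a gene is represented by its brightest probe set. A gene was called when limma's two-sided test gave a p-value under 0.05 after adjustment over the 13644 genes tested. Of the 10 genes 9 were tested, and *Egln3* lay below the filter on dim genes, a mean log2 signal of 5.51 over all arrays. *Adm* passed it, with a mean of 5.55, only through the KO arrays, as its WT mean of 4.90 lay below the filter. Among the 9, *Epas1* was called higher and *Vegfa* called lower, while over all genes 6.30% were called, 3.67% higher and 2.63% lower. These were 501 genes higher and 359 lower, against 214 higher and 260 lower when each array was centred on its median. The median difference of the 9 was -0.04, against 0.04 over all genes tested. The groups did not overlap for *Epas1*, *Vegfa* and *Bnip3*, as for 12.5% of all genes tested. When every probe set with 1 gene was tested without a filter, 0 of the 22 passed limma's adjusted threshold (lowest adjusted p = 0.115). By the same threshold 0.970% of all 34945 probe sets were called. An unadjusted p under 0.05 was found for 5 of the 22, and in the filtered fit for 2968 of the 13644 genes tested. The unadjusted share over all probe sets was not counted, so the 5 are no result about these genes.

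The labelled tissue and the deletion were checked on the same arrays. The islet hormone genes *Ins2*, *Iapp*, *Gcg*, *Sst* and *Ppy* had group means between 14.10 and 15.43. *Rptor* averaged 8.75 ± 0.32 (SD, n = 4) in KO and 9.47 ± 0.21 (SD, n = 5) in WT islets (log2 difference -0.72, limma adjusted p = 0.041). Its other 2 probe sets were dim and overlapped (-0.41 ± 0.60 and 0.65 ± 0.63), and with the 3 averaged the difference was -0.16 (adjusted p = 0.888). The position of these probe sets relative to the deleted exon was not analysed here. The call of *Rptor* was lost without KO replicate 1, 2 or 4 or WT replicate 1, 2, 3 or 5 (adjusted p from 0.0509 to 0.115). Markers of other cells differed between the groups. The KO and WT ranges were apart for the mean of 10 endothelial markers (9.79 to 10.15 in KO and 9.56 to 9.68 in WT islets, 0 of 10 called) and of 10 stromal markers (9.63 to 10.44 in KO and 8.27 to 9.32 in WT islets, 6 of 10 called higher). The same held for 4 ductal markers (7.34 to 8.06 in KO and 6.14 to 7.24 in WT islets, 0 called). Of these *Krt19*, *Sox9* and *Cftr* were dim, with means of 5.69, 5.62 and 4.955 over all arrays, and *Cftr* was not tested. *Krt19* and *Sox9* passed the filter only through the KO arrays (WT means 4.81 and 5.33). Single WT arrays read as low as 3.08 for *Krt19*, 1.66 for *Sox9* and 2.34 for *Cftr*, so the ductal difference is given as a description. The bright *Krt7* overlapped (0.11 ± 0.09, limma adjusted p = 0.528). The mean of 7 beta cell markers was lower (13.18 to 13.38 in KO and 13.77 to 13.99 in WT islets, 4 called lower). Those called were *Slc2a2* (-1.33), *Nkx6-1* (-0.95), *Ucn3* (-0.85) and *Pdx1* (-0.62). *G6pc2* (-0.24) was not called, and *Ins2* (-0.05) and *Iapp* (-0.12) overlapped and were not called either. *Iapp* (means 15.23 in KO and 15.35 in WT islets), *Gcg*, *Sst* and *Ppy* lay near the highest signal of each array, 15.16 to 15.56. Whether a change in these genes could still show so near the top of the scale was not tested. Adjusted over 7 marker lists, the endothelial, stromal, ductal and beta cell means each differed (exact two-sided permutation adjusted p = 0.0278). The lists were chosen with earlier results of these data known, so the p-values of the marker means are descriptive and not an independent test. By the same permutation test the means of other endocrine (adjusted p = 0.120), macrophage (0.120) and acinar markers (0.730) did not. Within these lists *Hhex*, an other endocrine marker (0.84, limma adjusted p = 0.0155), and the macrophage marker *C1qa* (0.45, limma adjusted p = 0.0491) were called higher. Of the markers written, 7 of 9 beta cell, 4 of 5 other endocrine and 4 of 7 acinar genes were found. Acinar markers varied widely within both groups, from 9.06 to 13.96 in KO and from 9.52 to 13.88 in WT islets. The lowest signal of any marker was above the floor of the table, so 0 markers were at 0.

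Because *Vegfa* and *Bnip3* were the targets whose KO and WT values did not overlap on the lower side, the 250 bases before their RefSeq start sites (GRCm38.p6) are shown. *Vegfa* lies on chromosome 17 and *Bnip3* on chromosome 7, both on the minus strand, and the stretches are chr17:46032378-46032627 and chr7:138909507-138909756. Capitals mark the core bases that HIF binds, ACGTG or GCGTG, read on both strands, where CACGTG counts on each strand.
Vegfa: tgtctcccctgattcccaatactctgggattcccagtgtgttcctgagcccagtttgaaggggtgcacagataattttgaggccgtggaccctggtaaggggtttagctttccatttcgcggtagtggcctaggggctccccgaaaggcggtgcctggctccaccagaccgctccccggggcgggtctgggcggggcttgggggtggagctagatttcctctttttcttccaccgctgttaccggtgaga
Bnip3: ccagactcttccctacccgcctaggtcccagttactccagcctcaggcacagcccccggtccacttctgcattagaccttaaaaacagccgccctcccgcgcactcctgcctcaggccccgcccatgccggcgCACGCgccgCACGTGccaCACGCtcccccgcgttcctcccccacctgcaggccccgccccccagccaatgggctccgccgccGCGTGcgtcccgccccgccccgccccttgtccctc

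The *Bnip3* stretch held 5 matches in 4 separate runs, and the *Vegfa* stretch held 0. A further RefSeq start of *Vegfa* had 2 matches in its window. Windows of 300 bases, 250 before and 50 after a start, were found for 8 of the 10 genes, not for *Epas1* and *Ndrg1*. Each of the 8 genes had a match in at least 1 window (8 of 9 windows), and 43.8% of all 32851 windows had one. A match is a stretch of letters and not a measured binding site. Bases more than 250 before a start were not searched, so 0 matches does not mean that a gene lacks such a site.

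*Epas1*, which encodes the HIF-2α subunit and is rich in endothelial cells, rose in KO islets. It read 12.47, 12.60, 12.34 and 12.59 in the KO arrays, against 11.82, 11.89, 12.16, 12.03 and 12.11 in the WT arrays. The lowest KO array lay above the highest WT array. The log2 difference was 0.50 ± 0.10, or 1.41-fold (limma adjusted p = 0.0265). A dimmer probe set of *Epas1* (6.30 ± 0.47 in KO and 5.82 ± 1.35 in WT islets, SD, n = 4 and 5) differed by 0.48 ± 0.66 with overlapping groups. The endothelial and stromal marker means were higher in KO islets as well, and their part in the rise of *Epas1* was not tested. More cells of a type and more RNA per cell cannot be told apart in whole islets. The call was lost without KO replicate 1, 2 or 4 or WT replicate 1 or 2 (adjusted p from 0.0577 to 0.0723, log2 difference 0.45 to 0.51), and with each array centred on its median (0.46, adjusted p = 0.113).

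*Hif1a*, which encodes the HIF-1α subunit, did not pass the test. Its brightest probe set read 12.24, 12.04, 12.19 and 12.12 in the KO arrays and 12.52, 12.23, 12.21, 12.30 and 12.39 in the WT arrays. These values overlapped, KO replicate 1 reading above WT replicates 2 and 3. The log2 difference was -0.18 ± 0.09 (limma adjusted p = 0.306), with a 95% interval from -0.39 to 0.03. A further bright probe set of *Hif1a* averaged 9.42 ± 0.20 in KO and 9.77 ± 0.18 in WT islets (log2 difference -0.34 ± 0.14, limma unadjusted p = 0.0418, adjusted p = 0.361 over all probe sets). Its other 2 probe sets were dim, with means of 5.66 and 4.49 over all arrays.

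The balance of the 2 subunit transcripts was also compared within each array, which removes any difference in scale between arrays. The log2 signal of *Epas1* minus that of *Hif1a* was 0.23, 0.55, 0.15 and 0.46 in the KO arrays and -0.70, -0.34, -0.05, -0.26 and -0.28 in the WT arrays. It was above 0 in every KO array and below 0 in every WT array, although the zero point itself has no meaning between different probe sets. The groups differed by 0.68. This comparison was chosen after the values of both genes were known, when *Epas1* alone already separated the groups, so it is a description and no test is given.

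The oxygen sensor gene *Egln1*, encoding the main HIF prolyl hydroxylase PHD2, was close in both groups. It read 10.56, 10.37, 10.48 and 10.76 in the KO arrays and 10.57, 10.66, 10.72, 10.79 and 10.73 in the WT arrays, with KO replicate 4 inside the WT range. The log2 difference was -0.15 ± 0.10 (limma adjusted p = 0.418, 95% interval -0.38 to 0.07), and its second probe set differed by -0.22 ± 0.17. *Egln3*, encoding PHD3, whose transcript is itself a HIF target, was dim in both probe sets. The brighter one read 3.48, 6.52, 6.40 and 6.00 in the KO arrays and 2.13, 5.82, 4.68, 5.13 and 5.70 in the WT arrays. Replicate 1 was the low array of each group, and the groups overlapped. The dimmer one read 5.74, 5.34, 5.61 and 5.55 in the KO arrays, against 3.32, 3.27, 4.46, 4.98 and 2.50 in the WT arrays. Its groups did not overlap (log2 difference 1.85 ± 0.48, limma unadjusted p = 0.00425), but the adjusted p over all probe sets was 0.138.

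*Vegfa*, the vascular growth factor gene, fell in KO islets. It read 11.59, 11.82, 11.88 and 11.42 in the KO arrays and 12.33, 12.16, 12.05, 12.19 and 12.12 in the WT arrays. The highest KO array lay below the lowest WT array. The log2 difference was -0.49 ± 0.11, or 1.41-fold lower (limma adjusted p = 0.0396). The beta cell marker mean was lower in KO islets too, and its part in the fall was not tested. *Ins2*, *G6pc2* and *Iapp* of that list were not called, *Iapp* reading near the highest signals of the arrays. The call was lost without KO replicate 1, 2 or 4 or any 1 of the 5 WT replicates (adjusted p from 0.0511 to 0.112, log2 difference -0.54 to -0.41). With quantile normalization the adjusted p was 0.0763. A second probe set of *Vegfa* read 7.78, 8.99, 9.0 and 7.56 in the KO arrays and 9.34, 9.03, 8.01, 8.99 and 7.90 in the WT arrays. In both probe sets of the gene KO replicates 1 and 4 were the lowest KO arrays and WT replicates 3 and 5 the lowest WT arrays. The second probe set differed by -0.32 ± 0.44, and the groups overlapped.

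*Bnip3*, which encodes a mitochondrial protein of mitophagy and cell death, was lower in every KO array than in any WT array but was not called. It read 12.24, 12.18, 12.23 and 12.41 in the KO arrays and 12.46, 12.69, 12.70, 12.42 and 12.61 in the WT arrays. KO replicate 4 and WT replicate 4 were nearly equal. The log2 difference was -0.31 ± 0.10 (limma unadjusted p = 0.00964, adjusted p = 0.0906), and its 95% interval ran from -0.53 to -0.10.

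**Figure D1:**
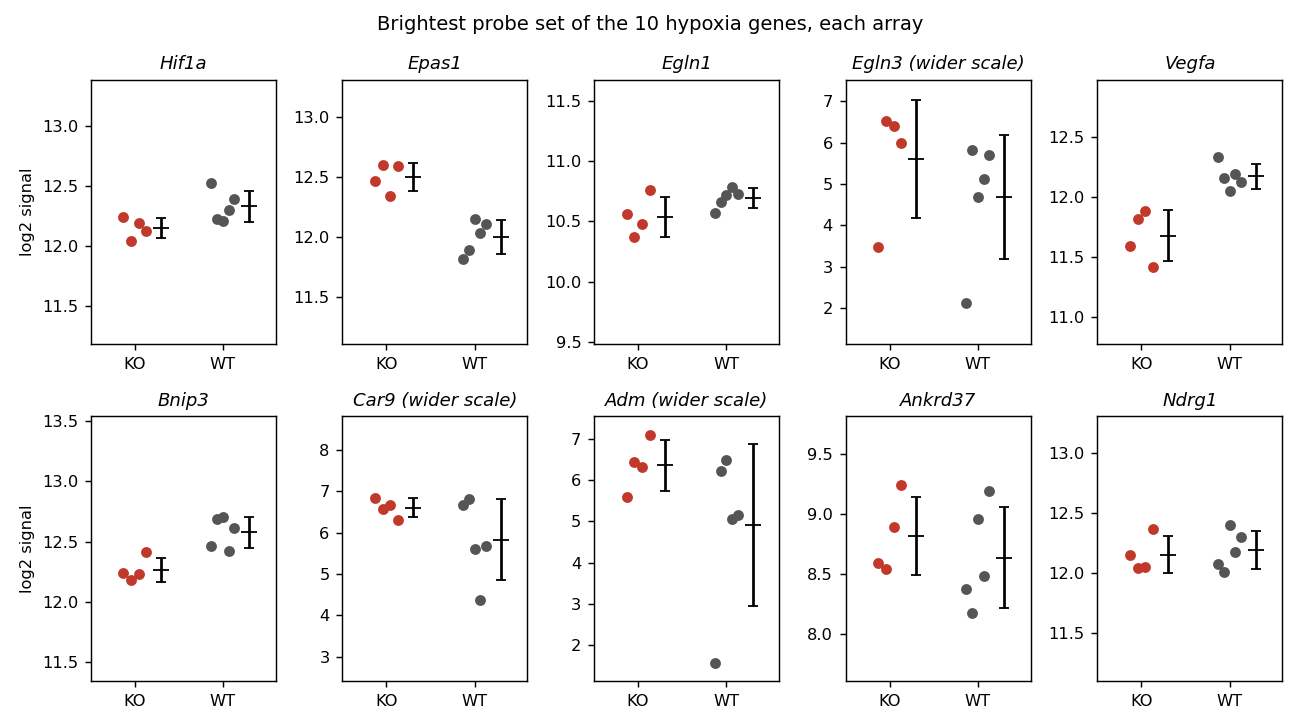
Log2 signal of the brightest probe set of each gene in the 4 KO (red) and 5 WT (grey) arrays, with the group mean and SD as bars. Vertical axes have the same span except for *Egln3*, *Car9* and *Adm*, whose span is wider. *Epas1* lay higher and *Vegfa* and *Bnip3* lower in KO islets without overlap, and the WT values of *Adm* ran from 1.58 to 6.49.

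The remaining targets did not pass the test. *Ankrd37*, an ankyrin repeat gene induced by HIF-1, read 8.60, 8.54, 8.89 and 9.25 in the KO arrays and 8.38, 8.18, 8.96, 8.49 and 9.19 in the WT arrays (log2 difference 0.18 ± 0.24, limma adjusted p = 0.718). The ranges overlapped widely. *Ndrg1*, a stress-induced gene linked to differentiation, read 12.15, 12.04, 12.05 and 12.37 in the KO arrays and 12.07, 12.01, 12.40, 12.18 and 12.30 in the WT arrays (log2 difference -0.04 ± 0.11, limma adjusted p = 0.889). Its 95% interval ran from -0.30 to 0.22. The probe set is of a class (_x_at) whose probes can also match other transcripts, as are those that stand for *Adm*, *Ins2*, *Pgk1* and *Aldoa*.

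*Car9*, carbonic anhydrase IX of the cell surface and a widely used hypoxia marker, was dim. It read 6.85, 6.58, 6.66 and 6.30 in the KO arrays and 6.68, 6.81, 5.61, 4.38 and 5.68 in the WT arrays (log2 difference 0.77 ± 0.45, limma adjusted p = 0.367). The KO values sat near the upper end of the WT range. *Adm*, the gene of the vasodilator peptide adrenomedullin, read 5.58, 6.44, 6.31 and 7.09 in the KO arrays and 1.58, 6.22, 6.49, 5.06 and 5.16 in the WT arrays (log2 difference 1.45 ± 0.91, limma adjusted p = 0.400). WT replicate 1 stood below all other arrays. Because *Adm* entered the test through the group in which it was higher, its difference is given as a description. The second *Adm* probe set read 5.87, 5.76, 4.87 and 5.31 in the KO arrays and 2.36, 2.65, 5.18, 2.09 and 5.74 in the WT arrays. WT replicates 3 and 5 lay inside the KO range and the other 3 far below it (log2 difference 1.85 ± 0.82, limma unadjusted p = 0.0535).

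Signal and spread went together among these probe sets. With a limit of 7 chosen after the values were seen, 14 probe sets were brighter and 8 dimmer. Within-group SDs ran from 0.08 to 0.77 in the brighter and from 0.16 to 2.05 in the dimmer ones. In all 8 dim probe sets the SD was smaller in KO than in WT islets, and 7 of the 8 had a positive difference. Over all 16270 probe sets below that limit the median SD was 0.932 in KO and 1.06 in WT islets, the WT SD was the larger in 54.1%, and 50.8% had a positive difference.

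**Figure D2:**
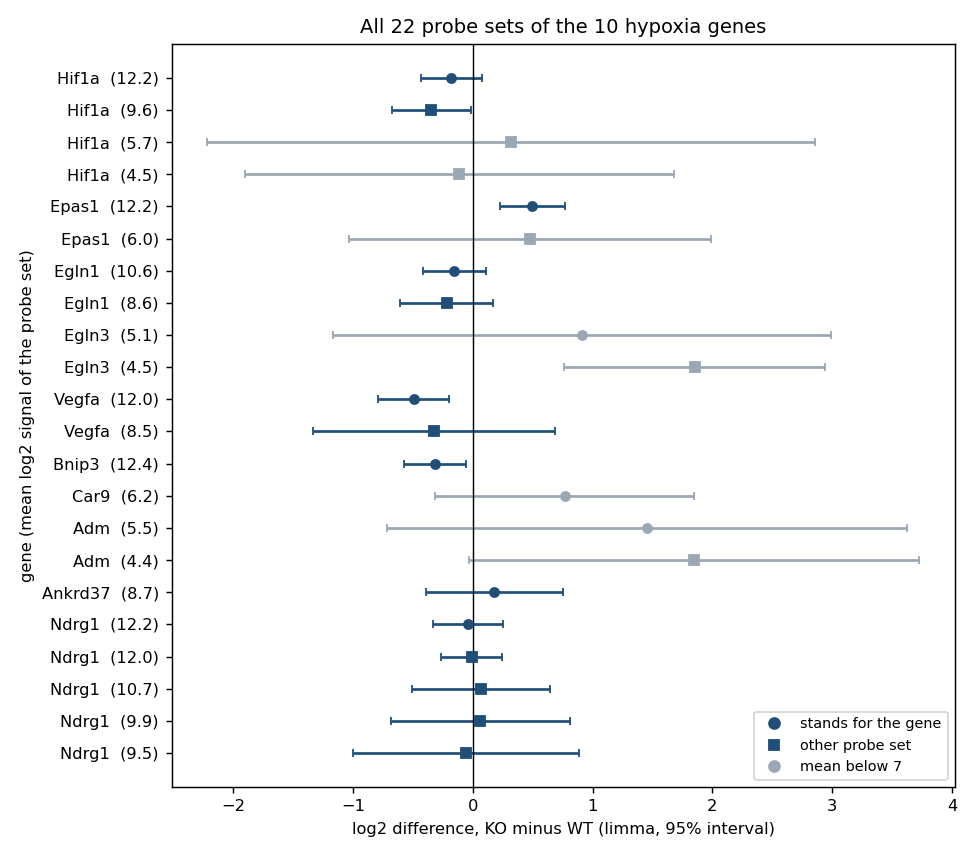
Log2 difference (KO minus WT) with its 95% limma interval, from the fit over all probe sets, for each of the 22 probe sets, with the mean log2 signal of the probe set in parentheses beside the gene name. Circles are the probe sets that represent a gene, squares the others, and grey marks a mean below 7. The intervals of dim probe sets were wide, and those of *Epas1*, *Vegfa* and *Bnip3* (circles), of 1 other *Hif1a* and of 1 dim *Egln3* probe set did not include 0.

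Of the 5 probe sets of *Ndrg1*, the 3 dimmer ones varied together across arrays. The brightest, given above, and the next, which read 11.93 to 12.22 in the KO arrays and 11.87 to 12.13 in the WT arrays, varied little. The probe set with a mean of 10.73 read 10.74, 11.01, 10.91 and 10.39 in the KO arrays and 11.03, 10.93, 10.75, 10.86 and 9.91 in the WT arrays. The probe set with a mean of 9.93 read 9.66, 10.61, 10.36 and 9.22 in the KO arrays and 10.10, 10.27, 9.47, 10.18 and 9.48 in the WT arrays. The dimmest read 8.99, 9.83, 9.99 and 8.96 in the KO arrays and 9.79, 10.38, 8.84, 9.83 and 8.66 in the WT arrays. KO replicates 1 and 4 and WT replicates 3 and 5 were the 4 lowest arrays in all 3, as they were in the second *Vegfa* probe set. Over all genes these 4 arrays were again the low ones. For 5318 probe sets of 3473 genes that had a mean over 8 and were not the brightest of their gene, the mean deviation from the brightest was -0.02, 0.13, 0.09 and -0.15 in the KO arrays. It was 0.09, 0.11, -0.13, 0.06 and -0.16 in the WT arrays. Both groups held low and high arrays, and the part of this in the members' values was not tested.

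**Figure D3:**
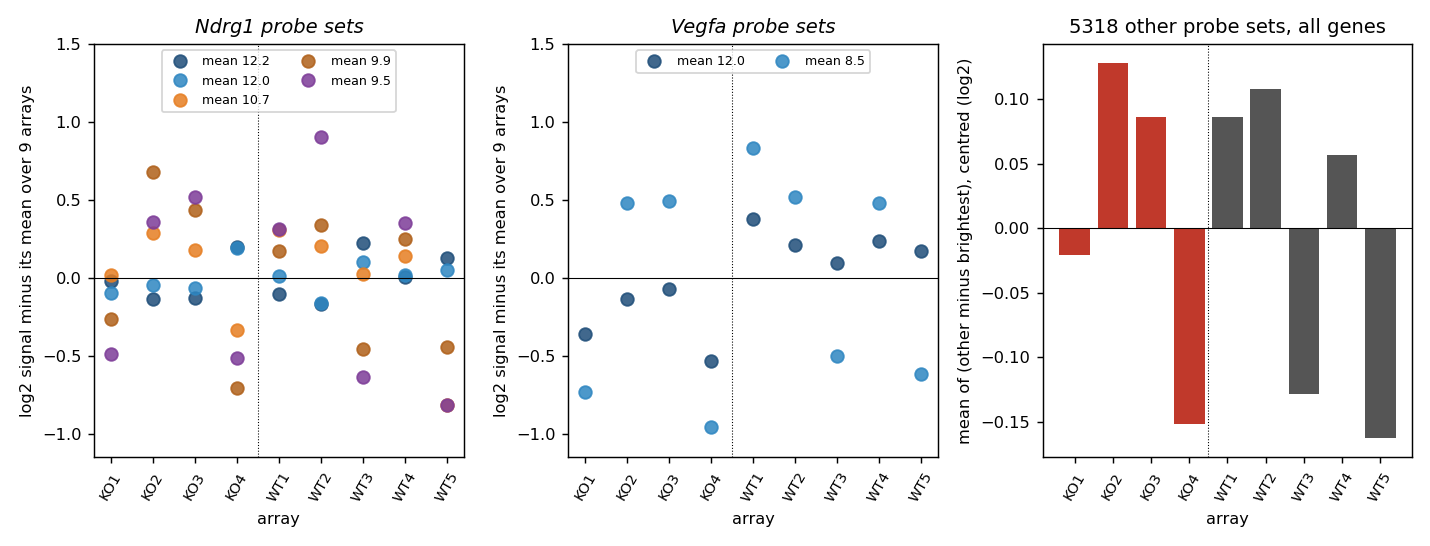
Left and middle, log2 signal of each *Ndrg1* and *Vegfa* probe set minus its mean over 9 arrays, by array. Right, mean over 5318 probe sets of the log2 difference between another probe set of a gene and its brightest, centred per probe set, in KO (red) and WT (grey) arrays. KO replicates 1 and 4 and WT replicates 3 and 5 were the 4 lowest arrays in the 3 dimmer *Ndrg1* probe sets, in the dimmer *Vegfa* probe set and over all genes.

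Over the 9 arrays, the genes with values most like those of *Epas1* were *Isg20*, *Ehbp1* and *Nudcd1*. Their centred log2 values differed from those of *Epas1* by a root mean square of 0.073, 0.081 and 0.083, the smallest among 13643 genes. For *Vegfa* they were *Chmp4c* (0.069), *Enpp5* (0.101) and *Chic1* (0.104). The groups fix much of this likeness, as the 6 genes differed between KO and WT islets by 0.43 to 0.47 and by -0.52 to -0.47.

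Other genes of the pathway were taken from 4 lists written by role, 81 names of which 71 were found and 68 tested. Of these 68 genes 7 rose and 3 fell, where 3.67% of all genes tested were called higher and 2.63% lower. Their median difference was 0.07, against 0.04 over all genes tested. The *Pfkfb3* gene, whose product makes the activator of phosphofructokinase, had the largest difference of the 68.

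Among 7 HIF subunits and partners 1 rose and 1 fell, where 6.30% of all genes tested were called in either direction. The median was 0.01, against 0.04 over all genes. *Hif3a*, a further α subunit gene of which some products restrain the other HIFs, read 7.41, 8.09, 8.18 and 7.32 in the KO arrays and 6.76, 6.94, 7.05, 6.79 and 6.50 in the WT arrays. The groups did not overlap (log2 difference 0.94 ± 0.21, limma adjusted p = 0.0334). Its second probe set by signal averaged 6.32 in KO and 6.74 in WT islets, the opposite direction, with overlap (-0.42 ± 0.29). The further probe sets of *Hif3a* were dim and overlapped (0.75 ± 0.99, -0.98 ± 1.14, -0.16 ± 0.49 and -0.77 ± 0.57). *Cited2*, whose protein competes with HIF for the coactivators p300 and CBP, fell by 0.72 ± 0.15 on the log2 scale (limma adjusted p = 0.0244). It read 11.66, 11.31, 11.69 and 11.50 in the KO arrays and 12.47, 11.83, 12.34, 12.33 and 12.36 in the WT arrays, and a second probe set differed by -0.89 ± 0.33 without overlap. *Arnt*, the common β subunit, differed by 0.32 ± 0.09 without overlap and was not called (limma adjusted p = 0.0829). Leaving out KO replicate 1, 2 or 4 or WT replicate 1 or 4 ended the call of *Cited2* (adjusted p from 0.0509 to 0.0653). Averaging its probe sets ended it too (-0.81, adjusted p = 0.0852). The call of *Hif3a* ended without KO replicate 2 or 3 or WT replicate 1, 2, 4 or 5 (0.0579 to 0.0848).

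Of the 10 tested genes of oxygen sensing and degradation 0 were called by limma, and the median was 0.01. An unadjusted p under 0.05 was found for 0 of them, and for 2968 of all 13644 genes tested. With 6.30% of all genes called, a count of 0 among 10 is near the background and is no result about this list. The lowest adjusted p was that of *Hif1an*, the asparaginyl hydroxylase FIH that blocks HIF activity (log2 difference -0.19 ± 0.09, limma adjusted p = 0.277). *Vhl*, the ubiquitin ligase subunit that recognises hydroxylated HIF-α, differed by 0.09 ± 0.19, and *Egln2*, the third prolyl hydroxylase gene, by 0.20 ± 0.10.

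Of 18 tested HIF targets of glycolysis 3 rose and 1 fell, beside 3.67% higher and 2.63% lower over all genes. The median was 0.06, against 0.04 over all genes. *Pfkfb3* read 9.51, 9.61, 9.77 and 9.71 in the KO arrays and 7.36, 6.57, 7.0, 6.17 and 7.36 in the WT arrays, a 6.76-fold rise (log2 difference 2.76 ± 0.24, limma adjusted p = 0.00069). The WT mean of 6.89 was dim, and its dimmer probe set differed by 0.24 ± 0.44. With both averaged the difference was 1.5 (adjusted p = 0.0107). *Pdk1*, the kinase gene that restrains entry of pyruvate into mitochondria, rose 1.70-fold (0.77 ± 0.11, limma adjusted p = 0.00634), and its other 3 probe sets differed by 0.61, 0.87 and 0.92. *Pfkp*, a phosphofructokinase gene, rose by 0.50 ± 0.11 (limma adjusted p = 0.0332), a call lost without any 1 of the 4 KO replicates or WT replicate 1, 2 or 5 (0.0592 to 0.102). Its other probe sets overlapped (0.44 ± 0.55 and 0.61 ± 0.69), and with all averaged the call was lost (0.52, adjusted p = 0.533). *Aldoc*, the aldolase C gene, fell by 0.65 ± 0.12 on the log2 scale (limma adjusted p = 0.0156). Its other probe set was dim (0.14 ± 0.86), and with both averaged the call was lost (-0.25, adjusted p = 0.831). The differences of the genes not called ran from -0.28 ± 0.17 for *Pkm*, a pyruvate kinase gene, to 0.77 ± 0.26 for *Hk1*, a hexokinase gene (limma unadjusted p = 0.0167, adjusted p = 0.123). Between them lay *Pgk1* (-0.05 ± 0.12), *Aldoa* (0.00 ± 0.08), *Ldha* (0.10 ± 0.20), *Hk2* (-0.22 ± 0.27) and *Slc2a1*, the GLUT1 gene (-0.15 ± 0.11). These 7 were named after their values were seen, and each is given by its brightest probe set alone.

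Of 33 other tested HIF targets 3 rose and 1 fell, beside the same 3.67% higher and 2.63% lower over all genes, so that 1 lower is near the background. The median was 0.19, against 0.04 over all genes. *Tgfb3* and *Nt5e* are counted in it, although they passed the filter on dim genes only through the KO arrays (WT means 4.85 and 5.20). *Bhlhe40*, a transcriptional repressor gene also known from the clock, rose 2.52-fold. It read 10.56, 10.06, 10.54 and 10.51 in the KO arrays and 8.96, 9.45, 9.44, 8.84 and 8.74 in the WT arrays (log2 difference 1.33 ± 0.19, limma adjusted p = 0.00587). *Slc2a3*, the GLUT3 gene, rose by 1.13 ± 0.27 (limma adjusted p = 0.0455) and *Higd1a*, of a mitochondrial protein induced by low oxygen, by 0.81 ± 0.17 (limma adjusted p = 0.0275), with its other 2 probe sets at 0.80 and 0.74. The call of *Slc2a3* was lost without any 1 of the 4 KO replicates or WT replicate 1, 2 or 4 (0.0801 to 0.111). Its other probe sets overlapped (0.80 ± 0.26, 0.06 ± 0.74 and 1.61 ± 0.81), and averaging all ended the call (0.90, adjusted p = 0.0616). The call of *Higd1a* was lost without KO replicate 1, 3 or 4 or WT replicate 1, 2, 3 or 4 (0.0503 to 0.0765). Averaging its probe sets ended it too (0.78, adjusted p = 0.0515). *Tfrc*, the transferrin receptor gene, fell by 0.69 ± 0.11 on the log2 scale (limma adjusted p = 0.0108), with its other probe sets at -0.25 ± 0.22 and 0.51 ± 0.95, and averaging all 3 ended the call (-0.15, adjusted p = 0.888). The stromal, endothelial, ductal and beta cell marker means given above differed between the same arrays, and their part in these changes was not tested.

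**Figure D4:**
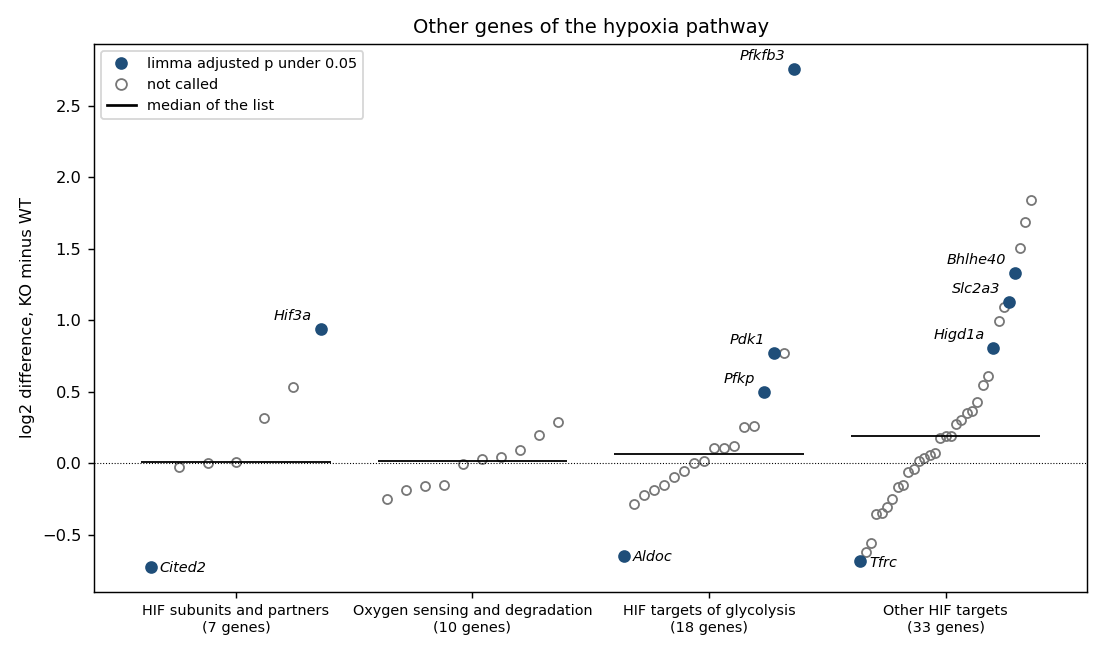
Log2 difference (KO minus WT) of the 68 tested genes of 4 hypoxia lists, each gene a point ordered by its difference within its list, with the list's median as a line. Filled points passed limma's adjusted threshold. *Pfkfb3* stood at 2.76, and the called genes lay on both sides of 0 in 3 of the 4 lists. *Tgfb3* and *Nt5e*, among the other HIF targets, passed the filter only through the KO arrays.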

How the data were processed

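Islet gene expression of KO and WT mice was profiled with biotin-labelled cRNA on 9 arrays. The authors deposited 1 log2 value per probe set and array. Genespring is named for their analysis. How probe sets were summarised and scaled is not given in the sources used here. On every array the trimmed mean of the linear signals came to 497.1 to 497.7 and the median log2 value to 6.85 to 7.05, with 43 to 107 values at a floor of 0. Arrays had thus been scaled to each other. The number of arrays limits the precision.

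The platform annotation paired 34945 probe sets with 1 gene, 932 with several and 9160 with none here. The brightest probe set, by mean over all arrays, stood for its gene, and the lowest 0.25 of genes was left out. Groups were compared by limma 3.58.1 (R 4.3.3) without covariates, and p-values were adjusted by the Benjamini-Hochberg method over all genes tested. The script was tested on simulated data. Marker means were compared by an exact permutation test over 126 divisions of the arrays. Replicates were separate pools, so p-values reflect the spread between pools.

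The members and gene lists were chosen with earlier results of these data known. The text names all members, *Rptor*, up to 4 called genes per list (with 0 called, the gene with the lowest p) and the 3 genes nearest to each called member. *Arnt*, *Vhl*, *Egln2* and 7 glycolytic genes were named after their values were seen. Promoter sequences are from RefSeq (GRCm38.p6). Alternatives covered normalization, the filter, 32 added to the linear signal, averaged probe sets, the methods' t-test, an intensity trend, left-out arrays and a replicate block.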

Additional observations from a re-analysis of the deposited data

Results flagged for a closer look

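There were 3 probe sets with 1 array far from the rest of its group by Dixon's criterion, of 44 groups of 4 or 5 arrays examined, and chance flags about 1 in 20. For the brighter *Egln3* probe set, KO replicate 1 read 3.48 and the other KO arrays 6.00 to 6.52. For the *Ndrg1* probe set with a mean of 12.03, KO replicate 4 read 12.22 and the other KO arrays 11.93 to 11.98. For the *Ndrg1* probe set with a mean of 10.73, WT replicate 5 read 9.91 and the other WT arrays 10.75 to 11.03. None of these probe sets entered a call.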

How the results depend on the processing

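The calls of *Epas1* and *Vegfa* stood near the threshold. Over 18 alternatives *Epas1* was called in 9 (adjusted p from 0.0032 to 0.556, log2 difference 0.45 to 0.55) and *Vegfa* in 6 (0.00696 to 0.497, -0.56 to -0.41), and both kept their direction in all 18. *Bnip3* was called only with an intensity trend (adjusted p = 0.030). Of the other genes, *Pfkfb3* was called in 17 of 17 alternatives, *Pdk1* and *Bhlhe40* in 17 of 18, *Aldoc* and *Tfrc* in 16 of 18, *Cited2* in 10 of 18, *Hif3a* in 7 of 16, *Pfkp* and *Higd1a* in 7 of 18 and *Slc2a3* in 5 of 18. Under the settings named no called gene changed sign.

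With each array centred on its median 0 of the 10 genes, 4 of the other hypoxia genes and 214 of all genes were called higher (1, 7 and 501 in the main setting), and the 214 higher stood beside 260 lower, in place of 501 and 359. With quantile normalization 0 of the 10 genes were called lower, and with an intensity trend 2. Without the filter 0 of the 10 genes were called higher and 0 lower, 3 other hypoxia genes were called higher, and 239 of all genes were called higher and 213 lower. With probe sets of a gene averaged, which mixes bright and dim ones, the counts were 0 and 0 for the 10 genes, 3 higher and 0 lower for the other hypoxia genes, and 183 higher and 134 lower for all genes. Leaving out 1 array at a time gave 0 to 1 higher and 0 to 1 lower among the 10 genes, 3 to 7 higher and 2 to 3 lower among the other hypoxia genes, and 193 to 498 higher and 182 to 304 lower among all genes. Replicate numbers only name the pools, and KO and WT pools of the same number did not deviate together (correlations -0.04, 0.09, 0.12 and -0.03), 2 of the 4 KO pools correlating best with the WT pool of their number. With the number as a replicate block, 0 of the 10 genes were called higher and 0 lower, 1 other hypoxia gene was called higher and 0 lower, and 33 and 28 of all genes. The causes of these shifts were not tested.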
